A study of Rattus norvegicus with 6 samples.

Results

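The proteasome genes of the rat were followed in mammospheres, the floating spheres that single mammary cells form when they cannot attach to a dish. They were taken as all genes whose symbol starts with Psma, Psmb, Psmc, Psmd, Psme or Psmg and that had at least 1 array probe set annotated to them alone. This rule gave 45 of the 14217 named genes on the array, measured by 59 probe sets, and used no expression value for the choice. The brightest probe set by mean over all arrays stood for a gene. Psmb6 and Psme3 were present only on probe sets that the annotation assigns to several genes, and are given apart. Psma8, a testis form, and Psmb11, a thymus form, were not analysed here. Psmc3ip, a protein of meiotic recombination, and Psme3ip1, a protein that binds the activator Psme3, share the prefix without being subunits, and were kept apart from the roles described below.

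The study compared 2 groups of female Sprague Dawley rats. The hCG group received recombinant human chorionic gonadotropin, a hormone of early pregnancy that stimulates the ovary to make steroids, at 100 IU per day by intraperitoneal injection, and the Control group received the phosphate-buffered saline vehicle. Injections started at an age of 55 days and went on for 21 days, and the mammary glands were removed 21 days after the last one. Cells enriched for mammary epithelium grew in suspension at 25000 cells per ml with EGF at 10 ng per ml for 7 days, spheres were caught on a 40 µm strainer, and their RNA was amplified in 2 cycles and hybridised to Affymetrix 3' arrays. Each group held 3 arrays, numbered 5, 6 and 7. The design speaks of 3 animals in each group without saying whether 1 array stands for 1 animal, so p-values measure only the spread between these samples, part of which may be technical. No label names a transgene, a clone or a sort.

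The proteasome degrades proteins that carry ubiquitin chains. Its core particle is a barrel of outer alpha rings, which gate the channel, and inner beta rings, which hold the protease sites. A regulatory particle caps the barrel: the ATPases and scaffolds of its base unfold the substrate and thread it into the channel, and its lid removes ubiquitin. Interferons induce the beta subunits Psmb8, Psmb9 and Psmb10, which take the places of Psmb5, Psmb6 and Psmb7 in newly built cores and so form the immunoproteasome, and also Psme1 and Psme2, which form an alternative activator. Immunoproteasomes shape the peptides shown by class I molecules and are constitutive in immune cells.

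None of the 45 proteasome genes passed the test between hCG and Control, which asked for an adjusted p under 0.05 from limma with Benjamini-Hochberg adjustment over 10424 genes. Over all those genes 250 passed, or 2.4%, with 139 higher (1.33%) and 111 lower (1.06%) in hCG. The smallest adjusted p of a proteasome gene in limma was 0.0894, for Psmg1. At an unadjusted p under 0.05 there were 9 proteasome genes, 6 higher and 3 lower in hCG, which is 20% of them against 25.2% of all genes. This count was 4 without hCG 5 and 19 with array weights. The 3 hCG arrays lay entirely above or entirely below the 3 Control arrays for 21 of the 45 genes, or 46.7%, against 31.6% of all genes. Of these 21, 11 had hCG above and 10 had hCG below, against 19.3% above and 12.3% below over all genes. With limma's array weights, an alternative that also calls 31.1% of all genes, 10 proteasome genes passed: Psmd10 and Psmd3 on the lower side, and Psmb10, Psme1, Psme2, Psme4, Psmg1, Psmg3, Psmg4 and Psma3 on the higher side.

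The changes were small. The median log2 change, always hCG minus Control, was 0.0053 over the proteasome genes and 0.030 over all genes, with 24 of 45 and 55.8% above zero, and the median size of change without regard to sign was 0.119 and 0.146. A change beyond 0.5 on the log2 scale was measured for 2 of 45 proteasome genes, Psmb8 and Psmb10, and for 9.63% of all genes. All 45 genes passed the filter on dim probe sets, with mean log2 signals from 5.44 to 10.3. The median signal was 8.43, against 5.91 for all genes tested. The standard errors of their changes had a median of 0.080, against 0.105 for all genes. The 95% interval of the change lay within 1 log2 unit (2-fold) of zero for all 45 genes, and within 0.5 units (1.41-fold) for 40 of them. The exceptions to the narrower bound were Psmb8, Psmb9, Psmb10, Psmd3 and Psmg4. Over all genes the counts were 9581 and 6930 of 10424. Each of these intervals covers 1 gene, with no adjustment for their number.

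**Figure D1:**
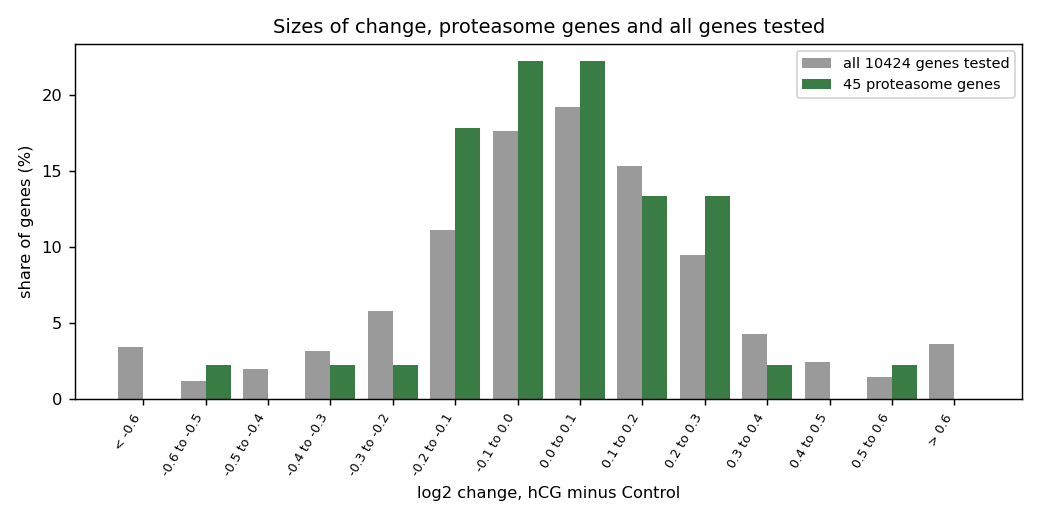
Share of genes in each bin of log2 change (hCG minus Control, 3 arrays per group), in percent, for the 45 proteasome genes and for all 10424 genes tested. The proteasome genes fill the middle bins, with Psmb8 and Psmb10 as the outermost ones.

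**Figure D2:**
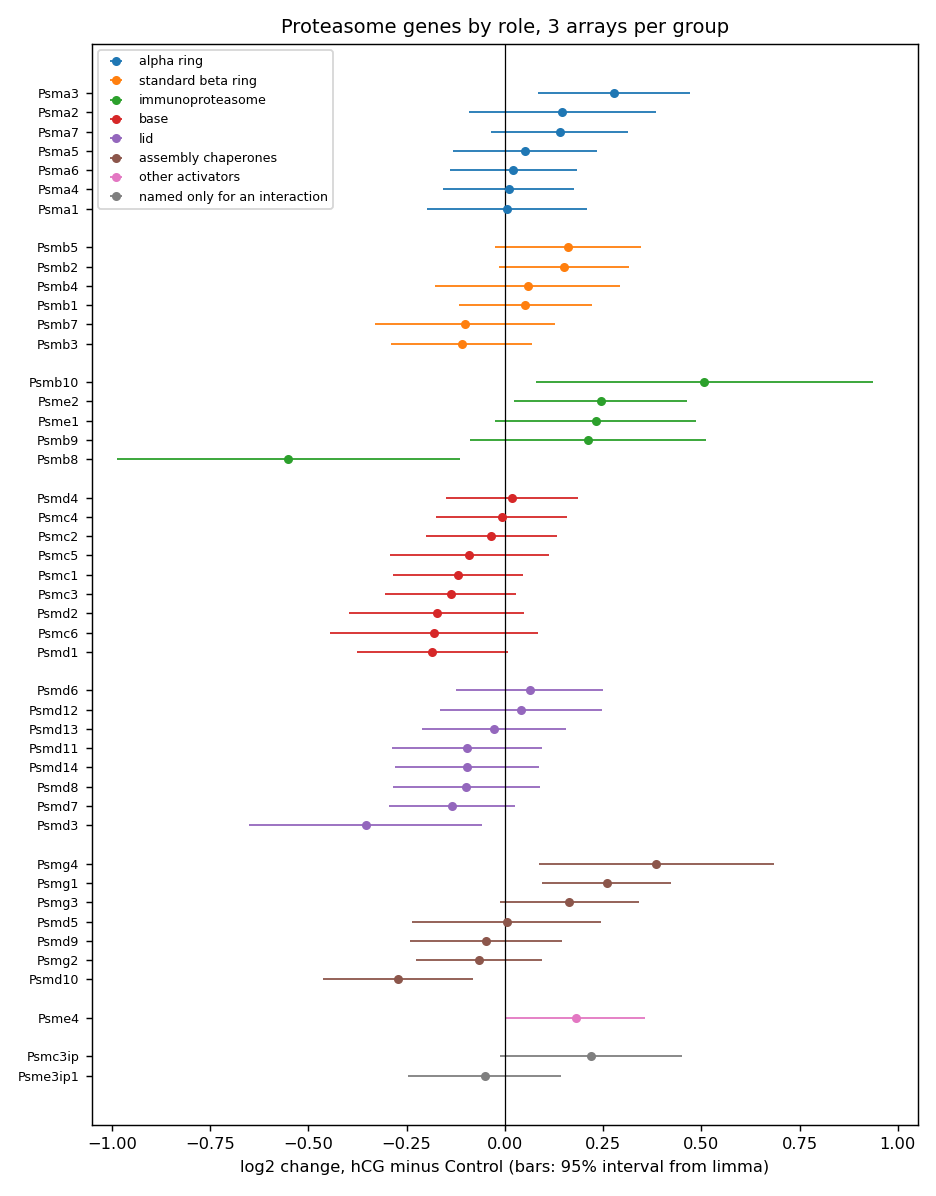
Log2 change of each proteasome gene, hCG minus Control, with its 95% interval from limma (3 arrays per group), ordered by role. Psmb8 lies farthest to the left and Psmb10 farthest to the right, and 8 of the 9 base genes lie left of zero.

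The arrays as a whole were alike in scale, with medians between 3.44 and 3.48. The spiked poly-A transcripts had mean log2 signals of 5.43 to 5.71 on Control and 4.32 to 4.90 on hCG arrays, without overlap, while the hybridisation spikes overlapped, at 7.50 to 7.78 and 7.29 to 7.55. The difference between the 3' and 5' probe sets of Gapdh was 0.22, 0.11 and 0.67 on Control 5, 6 and 7 and 0.048 to 0.16 in hCG. That of Actb was 1.65, 1.46 and 2.18 in Control and 1.55 to 1.75 in hCG. Control 7 thus had the largest difference for both genes. Luminal keratins and basal markers were above the filter in these epithelium-enriched cultures, with 9 of 10 luminal and 8 of 10 basal markers measured. All 10 fibroblast markers and 10 of 14 endothelial markers were measured as well. The median log2 signal of the measured markers was 11.2 for fibroblast, 6.07 for luminal, 5.65 for basal and 4.56 for endothelial markers. Over all genes tested it was 5.91. The RNA of the spheres thus held strong fibroblast signal beside that of epithelium. Shares of cell types cannot be read from signals of different probe sets. Among luminal markers Cd24 fell by 1.42 on the log2 scale and 8 of 9 had changes below zero. The mean level of that list, relative to the Control mean, was −0.75 to 0.60 in Control and −0.70 to −0.38 in hCG. The hCG arrays thus lay within the span of the Control arrays. All 8 basal markers had changes above zero with none called, and their mean level was −0.67 to 0.54 in Control and 0.58 to 0.79 in hCG. Among fibroblast markers Lum rose by 1.13 and Dpt fell by 0.99. All 10 measured endothelial markers had changes above zero, and 5 of them were called higher in hCG, against 1.33% of all genes. Sox17, called among these, passed the filter of 2.67 only through hCG, with means of 2.23 in Control and 4.38 in hCG. Vwf and Tie1 were below the filter. The summed linear signal of the 10 endothelial markers was 148 to 249 in Control and 413 to 451 in hCG. The part of these differences in the results below was not tested.

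The 5 immunoproteasome genes did not move as 1 group. Psmb8 had lower values in hCG, Psmb10, Psme1, Psme2 and Psmb9 had higher means, and none of the 5 passed the test. The median of their log2 changes was 0.23. Psmb8, the inducible subunit with chymotrypsin-like activity, read 6.70, 6.92 and 6.93 on Control 5, 6 and 7, and 5.88, 6.55 and 6.47 on hCG 5, 6 and 7. Every hCG array lay below every Control array, with hCG 5 far below the others. Its log2 change was −0.55 (SE 0.18, limma adjusted p = 0.1326), a fold of 0.683, and it was −0.34 without hCG 5. Psmb10, the inducible subunit with trypsin-like activity, read 5.91, 6.15 and 6.46 in Control and 6.94, 6.41 and 6.69 in hCG. The groups overlapped at 1 point, where hCG 6 lay below Control 7. The log2 change of Psmb10 was 0.51 (SE 0.18, limma adjusted p = 0.1491), a fold of 1.42.

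Psmb9, the inducible subunit that replaces Psmb6, read 6.18, 6.18 and 6.21 in Control and 6.65, 6.16 and 6.40 in hCG. The Control arrays were nearly equal, the hCG arrays were spread, and hCG 6 was the lowest of all arrays, just under the Control values. Its log2 change was 0.21 (SE 0.13, limma adjusted p = 0.3428), and 0.089 without hCG 5. The activator subunit Psme1 read 8.38, 8.45 and 8.72 in Control and 8.83, 8.67 and 8.74 in hCG, a log2 change of 0.23 (SE 0.11, limma adjusted p = 0.2394) with overlapping groups. Its partner Psme2 read 8.24, 8.26 and 8.44 in Control and 8.67, 8.51 and 8.49 in hCG, with every hCG array above every Control array. The log2 change of Psme2 was 0.24 (SE 0.092, limma adjusted p = 0.1648). The array hCG 5 had the highest value of all arrays for Psmb9, Psmb10, Psme1 and Psme2 and the lowest for Psmb8.

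**Figure D3:**
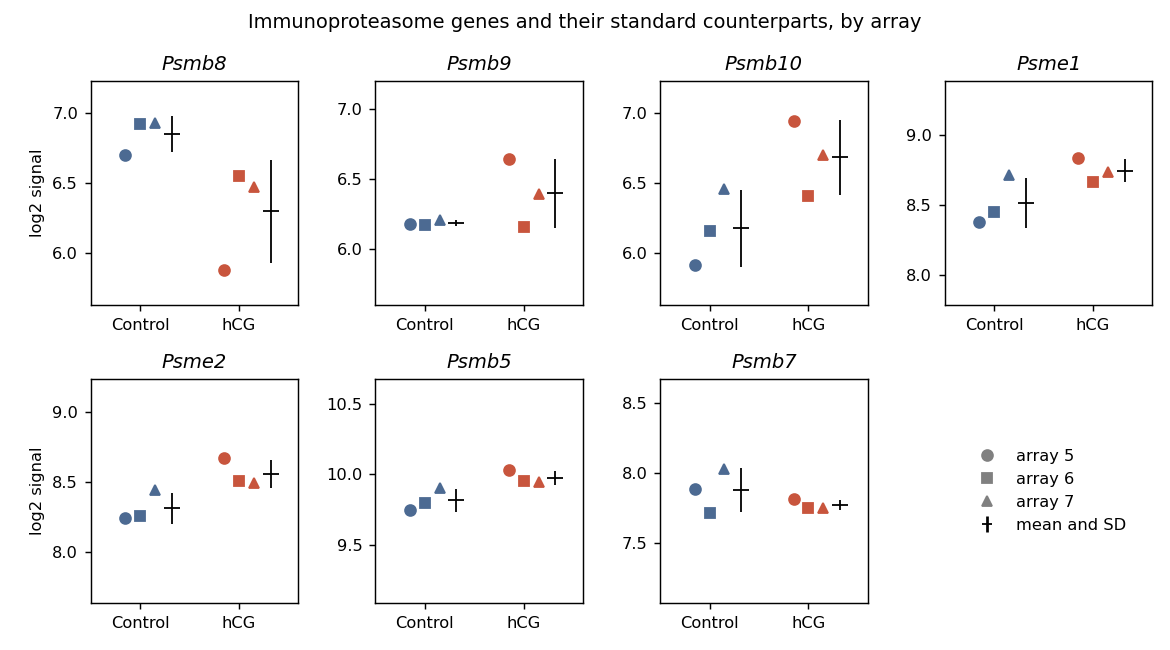
Log2 signal on each array for the 5 immunoproteasome genes and the standard subunits Psmb5 and Psmb7, with the mean and SD of each group (n = 3) as a cross and bar; each panel spans the same height in log2 units. Psmb8 is the gene whose hCG points all sit under the Control points, and hCG 5 stands at the edge of the panels of Psmb8, Psmb9 and Psmb10.

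The promoters of inducible genes are shown because interferons act on their targets through short elements there, among them the interferon-stimulated response element. Each window below is 300 bases of RefSeq's assembly GRCr8, from 250 before to 50 after the annotated start, written 5' to 3' along the gene. Psmb8 lies at chr20:4656982-4657281 on the minus strand, Psmb9 at chr20:4668750-4669049 on the plus strand, Psmb10 at chr19:50743243-50743542 on the minus strand and Psme2 at chr15:33052702-33053001 on the minus strand. Capitals mark matches to GAAA, any 2 bases, GAAA, the core letters of that element, on either strand.
Psmb8: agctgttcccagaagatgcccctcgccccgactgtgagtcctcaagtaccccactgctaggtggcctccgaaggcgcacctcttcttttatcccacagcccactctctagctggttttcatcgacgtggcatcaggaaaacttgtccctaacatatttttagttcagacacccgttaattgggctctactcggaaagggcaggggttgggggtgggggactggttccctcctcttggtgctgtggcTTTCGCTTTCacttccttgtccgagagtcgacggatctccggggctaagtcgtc
Psmb9: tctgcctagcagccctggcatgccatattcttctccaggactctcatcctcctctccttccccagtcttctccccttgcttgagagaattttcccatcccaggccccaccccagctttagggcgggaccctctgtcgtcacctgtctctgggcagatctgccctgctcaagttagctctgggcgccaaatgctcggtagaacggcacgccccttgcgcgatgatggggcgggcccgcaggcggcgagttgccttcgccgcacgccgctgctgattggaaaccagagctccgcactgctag
Psmb10: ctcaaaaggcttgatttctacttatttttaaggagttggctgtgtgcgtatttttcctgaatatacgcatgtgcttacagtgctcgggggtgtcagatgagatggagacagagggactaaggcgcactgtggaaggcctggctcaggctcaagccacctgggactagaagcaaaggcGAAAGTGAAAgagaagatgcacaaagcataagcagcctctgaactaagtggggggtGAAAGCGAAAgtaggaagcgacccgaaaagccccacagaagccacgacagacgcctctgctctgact
Psme2: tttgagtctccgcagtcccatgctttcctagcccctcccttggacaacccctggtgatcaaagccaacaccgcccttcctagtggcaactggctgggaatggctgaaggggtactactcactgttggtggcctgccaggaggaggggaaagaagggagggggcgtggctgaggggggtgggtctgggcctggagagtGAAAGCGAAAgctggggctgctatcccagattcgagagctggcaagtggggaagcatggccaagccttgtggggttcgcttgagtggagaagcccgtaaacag
The match in Psmb8 reads TTTCGCTTTC, on the opposite strand, from position −4 to 5 around the start. Psmb10 holds a pair of matches, GAAAGTGAAA from −73 to −64 and GAAAGCGAAA from −17 to −8, and Psme2 holds GAAAGCGAAA from −53 to −44. So the gene with lower values in hCG and the 2 with higher values held the same core letters. The windows of Psmb9 and of Psme1 (chr15:33038721-33039020, plus strand, not printed) held no match, which says only that these letters are absent from these 300 bases.

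Over the 41 proteasome genes with a promoter in the RefSeq table, GAAA, any 2 bases, GAAA was found in 7, or 17.1%, against 3.92% of 33469 promoters. The others were Psma4, Psmb3, Psmd7 and the chaperone gene Psmg4, whose match GAAAGTGAAA runs from 7 to 16. The antioxidant response element core TGACNNNGC was in 7 of 41, or 17.1%, against 12.1%. These were Psma3, Psmb2, Psmb5, Psmd1, Psmd3, Psmd9 and Psme4, with changes of both signs among them. The gamma-activated site TTCNNNGAA was in 4 of 41, or 9.76%, against 8.87%, among them Psmb8 and Psmd3, and the CCAAT box (CCAAT) was in 21 of 41, or 51.2%, against 37.5%. Both strands were searched for each. Matches to different motifs overlapped in 1 proteasome promoter, that of Psmb2. A match of letters describes the sequence and is not a binding site.

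At the RNA level, inducible subunits were set against the standard ones they replace, as the difference of their log2 values on each array. Exchange within the protein complex was not measured. Psmb9 against Psmb6 was left out, because Psmb6 lay only on a probe set shared with Psmb6l1. Psmb5, the standard chymotrypsin-like subunit, read 9.74, 9.80 and 9.91 in Control and 10.03, 9.95 and 9.94 in hCG, a log2 change of 0.16 (SE 0.078, limma adjusted p = 0.2522) with hCG above. Psmb8 minus Psmb5 was −3.04, −2.87 and −2.98 in Control and −4.15, −3.40 and −3.47 in hCG. The hCG arrays were all lower, and the group means differed by −0.71 (SD 0.085 in Control and 0.41 in hCG, n = 3 each), or by −0.47 without hCG 5. Psmb7, the standard trypsin-like subunit, read 7.89, 7.71 and 8.03 in Control and 7.82, 7.75 and 7.75 in hCG, a log2 change of −0.10 (SE 0.096, limma adjusted p = 0.5502) with overlapping groups. That change was −0.027 without Control 7 and −0.18 without Control 6. Psmb10 minus Psmb7 was −1.98, −1.56 and −1.57 in Control and −0.87, −1.34 and −1.06 in hCG, so here the hCG arrays were all higher. These means differed by 0.61 (SD 0.24 in each group, n = 3). The RNA difference between inducible and standard subunit thus shifted in opposite directions in the 2 pairs. Psmb8 minus Psmb9, chosen after the values were seen, was 0.52, 0.75 and 0.72 in Control and −0.77, 0.39 and 0.07 in hCG. No p is given for these differences. The sizes of signals from different probe sets cannot be compared with each other, and only the shift between groups was read.

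In the rat, Psmb8 and Psmb9 lie beside the peptide transporter genes in the order Tap2, Psmb8, Tap1, Psmb9, followed by the class II chaperone gene RT1-DMb (RefSeq, GRCr8). Tap1 read 6.31, 6.07 and 6.06 in Control and 5.91, 5.76 and 5.71 in hCG, all hCG arrays below, with a log2 change of −0.35 (SE 0.10, limma adjusted p = 0.1031). Tap2 had a log2 change of 0.12 with overlapping groups (limma adjusted p = 0.3614). RT1-DMb had a log2 change of −0.34 (SE 0.18, limma adjusted p = 0.291), also with overlap. Along this stretch the means of Psmb8, Tap1 and RT1-DMb were thus lower in hCG, and those of Tap2 and Psmb9 higher. Psme1 and Psme2, which lie on either side of Emc9, had nearly equal changes.

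Immune cells carry immunoproteasomes, so their markers were read beside these genes. Of 12 markers of antigen-presenting cells 10 were measured. Of these, 3 were called lower in hCG, against 1.06% of all genes: Cd83 by 1.28, RT1-Da by 1.39 and Cd86 by 0.81 on the log2 scale. Their hCG means were low, at 3.68, 4.71 and 3.37 with the filter at 2.67. The other measured markers besides Cd74 had changes from −0.34 (RT1-DMb) to 0.63 (RT1-Bb), and the list median was −0.20. The summed linear signal of the list was 457 to 615 in Control and 189 to 293 in hCG. Cd74, the invariant chain of class II molecules, read 8.10, 7.87 and 8.55 in Control and 5.36, 7.02 and 6.28 in hCG (log2 change −1.95, SE 0.40, limma adjusted p = 0.0550). Its lowest array was hCG 5, as for Psmb8 and RT1-Da, while Cd83 was lowest on hCG 7 and Cd86 on hCG 6. Of 15 lymphocyte markers only Ptprc and Lck were above the filter, and Cd3e, Cd4, Cd8a and Ms4a1 were not. The sum over the measured lymphocyte markers was 22.8 to 26.4 in Control and 16.4 to 20.9 in hCG, with log2 changes of −1.09 for Ptprc and 0.32 for Lck, both without overlap. Both lay near the filter of 2.67. Ptprc had means of 3.83 in Control and 2.74 in hCG, and Lck had 3.26 and 3.58. Of 11 macrophage markers 5 were measured and none was called, with C1qa, C1qb, C1qc, Csf1r, Mrc1 and Cd163 below the filter. Their summed signal was 225 to 450 in Control and 196 to 249 in hCG, but the list's median log2 change was 0.65: Lyz2, Fcgr2b and Adgre1 had higher means in hCG (0.90, 0.89 and 0.65), and Cd68 and Aif1 lower ones (−1.33 and −0.15). Of 10 granulocyte and mast cell markers 4 were measured and none was called. All 4 had log2 changes below zero, from −1.67 (S100a9, with an hCG mean of 1.94, below the filter) to −0.054 (Tpsb2). Of the 10 measured antigen-presenting markers 8 had changes below zero, as Psmb8 had. Among these, Ciita (−0.064), RT1-Ba (−0.043) and RT1-DMa (−0.010) were close to zero. RT1-Bb (0.63) and Itgax (0.17) had changes above zero, as had Psmb9, Psmb10, Psme1 and Psme2. The part of these cells in the values of Psmb8 was not tested, and in RNA from whole spheres fewer cells of a type and less RNA per cell cannot be told apart.

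Among the genes of the alpha rings, 7 of 7 measured had log2 changes above zero on the deposited values, with a median of 0.052 (0.030 over all genes), but 5 of 7 after quantile normalization and 4 of 7 after cyclic loess. The median ran from 0.030 without hCG 5 to 0.090 without Control 6. None was called. Psma3 read 6.69, 6.77 and 6.70 in Control and 7.08, 6.89 and 7.03 in hCG. Its hCG arrays were all higher, with a log2 change of 0.28 (SE 0.081, limma adjusted p = 0.1042). Psma7 read 9.55, 9.60 and 9.63 in Control and 9.79, 9.67 and 9.74 in hCG, again without overlap, with a log2 change of 0.14 (SE 0.073, limma adjusted p = 0.2862). Psma2 read 9.60, 9.68 and 9.35 in Control and 9.69, 9.69 and 9.68 in hCG, where Control 7 alone was low. Its change was 0.15, and 0.048 without Control 7. The other 4 alpha genes, Psma1, Psma4, Psma5 and Psma6, had log2 changes from 0.0053 to 0.052 with overlapping groups.

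In the standard beta rings 4 of 6 genes measured had changes above zero, with a median of 0.055, and none was called. The median was 0.018 without Control 5 and 0.10 without Control 7. Psmb2 read 9.43, 9.49 and 9.38 in Control and 9.58, 9.58 and 9.60 in hCG, all hCG arrays higher, with a log2 change of 0.15 (SE 0.070, limma adjusted p = 0.2377). Psmb3 read 9.30, 9.22 and 9.25 in Control and 9.21, 9.17 and 9.07 in hCG, so its hCG arrays were all lower, by a narrow margin, with a change of −0.11. Psmb1 and Psmb4 had log2 changes of 0.052 and 0.058 with overlap. The probe set shared by Psmb6, the standard caspase-like subunit, and Psmb6l1 read 8.42, 8.44 and 8.62 in Control and 8.54, 8.55 and 8.55 in hCG, which overlapped.

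The genes of the regulatory particle were mostly on the other side of zero. In the base 8 of 9 had log2 changes below zero, with a median of −0.12, and none was called. Psmd1, a large scaffold of the base, read 7.83, 7.81 and 7.77 in Control and 7.51, 7.72 and 7.63 in hCG. All hCG arrays were lower, and the log2 change was −0.18 (SE 0.081, limma adjusted p = 0.2138). The ATPase Psmc3 read 9.44, 9.38 and 9.49 in Control and 9.31, 9.32 and 9.27 in hCG, also without overlap, with −0.14 as the log2 difference (SE 0.070, limma adjusted p = 0.2745). The scaffold Psmd2 read 8.94, 8.92 and 9.19 in Control and 8.85, 8.86 and 8.82 in hCG, and the ATPase Psmc1 read 8.22, 8.24 and 8.28 against 8.08, 8.15 and 8.15. Both had all hCG arrays lower, with changes of −0.17 and −0.12, and that of Psmd2 was −0.086 without Control 7, its highest array. The ATPases Psmc2, Psmc4, Psmc5 and Psmc6 had log2 changes from −0.18 to −0.0078 with overlapping groups. The ubiquitin receptor Psmd4 had a log2 change of 0.019.

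In the lid 6 of 8 genes had log2 changes below zero, with a median of −0.096, and none was called. Psmd3, a structural subunit of the lid, read 6.74, 6.59 and 7.01 in Control and 6.33, 6.54 and 6.41 in hCG. All hCG arrays were lower, hCG 6 only just, and the log2 change was −0.35 (SE 0.12, limma adjusted p = 0.1468), a fold of 0.782 and the most negative value in the regulatory particle. Psmd7, the partner of the deubiquitinase, read 8.33, 8.39 and 8.35 in Control and 8.22, 8.24 and 8.20 in hCG, without overlap, with −0.13 as the log2 difference (SE 0.067, limma adjusted p = 0.2651). Psmd14, the deubiquitinase itself, had a log2 change of −0.097, Psmd8 −0.098, Psmd11 −0.096 and Psmd13 −0.028, all with overlapping groups. Psmd6 and Psmd12 had changes of 0.063 and 0.041.

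Core and regulator thus lay apart by a small amount. The mean log2 level of the 13 core genes of the alpha and standard beta rings, relative to the Control mean, was −0.0083, 0.0046 and 0.0037 in Control and 0.10, 0.043 and 0.054 in hCG. The mean level of the 17 base and lid genes was 0.0029, −0.041 and 0.038 in Control and −0.12, −0.070 and −0.098 in hCG. Neither overlapped between groups. The core level minus the regulator level was −0.011, 0.046 and −0.034 in Control (SD 0.041) and 0.22, 0.11 and 0.15 in hCG (SD 0.052). The difference between the group means was 0.16, or 1.12-fold (n = 3 each). It stayed between 0.13 and 0.18 over all alternatives tried. This difference was chosen after the values were seen, rests on genes that share arrays, and has no p. How far the core departs from zero depends on the scaling, while the regulator stayed below zero under each. Changes above zero were found for 11 of 13 core genes and changes below zero for 14 of 17 regulator genes on the deposited values. After cyclic loess these were 7 of 13 and 16 of 17, and after quantile normalization 9 of 13 and 14 of 17. The difference itself ran from 0.16 to 0.17 over these scalings.

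**Figure D4:**
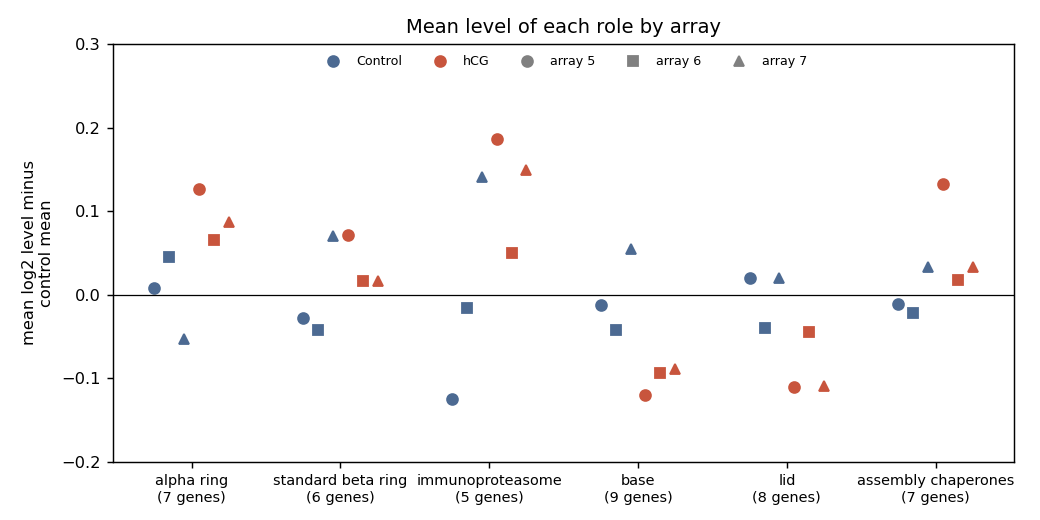
Mean log2 level of the genes of each role on each array, relative to the Control mean, for 3 Control and 3 hCG arrays (symbols give the array number). The hCG points lie above the Control points in the alpha ring and below them in the base and lid, and the groups overlap in the standard beta ring, the immunoproteasome and the assembly chaperones.

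**Figure D5:**
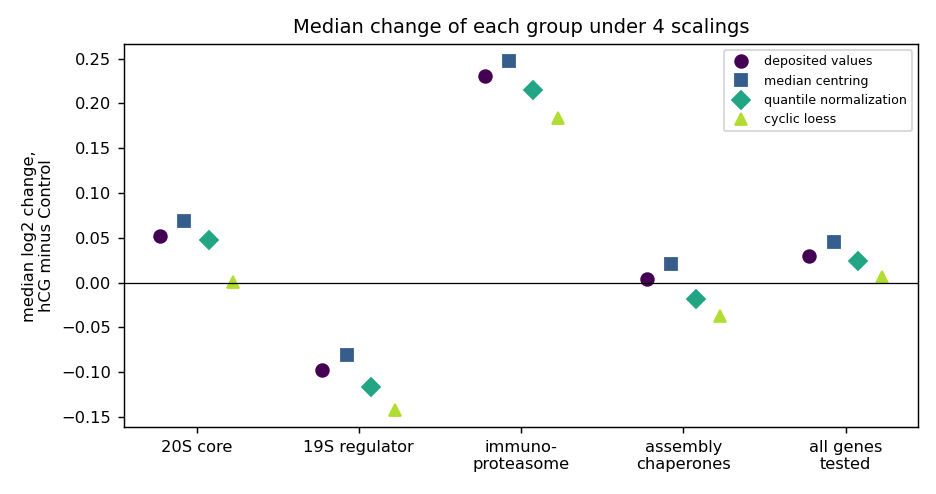
Median log2 change (hCG minus Control) of the genes of each group under 4 scalings of the arrays, beside all genes tested. The regulatory particle (19S regulator) stays below zero and the immunoproteasome above it, while the median of the core (20S core) goes from 0.052 to 0.0013 under cyclic loess and that of the chaperones changes sign.

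The assembly chaperones build the proteasome without being part of it, and 5 of 7 had groups that did not overlap, 3 with hCG above and 2 with hCG below, against 31.6% of all genes. None was called. Psmg1, which with Psmg2 starts the alpha ring, read 7.82, 7.79 and 7.82 in Control and 8.12, 8.04 and 8.04 in hCG. Both groups were tight and hCG was higher, with a log2 change of 0.26 (SE 0.069, limma adjusted p = 0.0894). Its partner Psmg2 had a log2 change of −0.065, in the other direction, with hCG arrays just below those of Control. Psmg4 read 7.01, 6.88 and 7.26 in Control and 7.59, 7.30 and 7.41 in hCG, without overlap, a log2 change of 0.39 (SE 0.13, limma adjusted p = 0.1271). Its partner Psmg3 read 7.09, 7.10 and 7.23 in Control and 7.29, 7.31 and 7.31 in hCG, also higher without overlap, with 0.16 as the log2 difference (SE 0.075, limma adjusted p = 0.2287). Psmg3 and Psmg4 thus had the same direction, while Psmg1 and Psmg2 did not.

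The remaining chaperones serve the base. Psmd10, also known as gankyrin, read 8.73, 8.79 and 8.65 in Control and 8.53, 8.46 and 8.37 in hCG. Every hCG array was lower, and the log2 change was −0.27 (SE 0.081, limma adjusted p = 0.1075). Psmd5 and Psmd9 had log2 changes of 0.0044 and −0.048 with overlapping groups. Psme4, an activator that caps the core in place of the regulatory particle, read 8.76, 8.85 and 8.88 in Control and 9.04, 8.95 and 9.04 in hCG, all hCG arrays higher. Its log2 change was 0.18 (SE 0.075, limma adjusted p = 0.1922), and its 3 probe sets had changes of 0.18, 0.17 and 0.13. The 4 probe sets shared by Psme3, Aoc3 and G6pc1 had changes from −0.066 to 0.14, all with overlapping groups. Of the genes that share only the prefix, Psmc3ip had a log2 change of 0.22 (SE 0.098, limma adjusted p = 0.2194) and Psme3ip1 one of −0.051 (SE 0.082, limma adjusted p = 0.7341).

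Several probe sets measured 9 of the 45 genes, and 7 of these had more than 1 above the filter. They had the same sign for Psmd7, Psmd11 and Psme4 and differing signs for Psmc4, Psmc6, Psmd9 and Psmd14, named here because of it. For Psmc6 the brightest probe set had a log2 change of −0.18, and the other 2 had 0.073 and 0.070. For Psmd14 the 3 probe sets had log2 changes of −0.097, −0.029 and 0.29, the last being the dimmest. The count of base and lid genes below zero therefore rests in part on the choice of the brightest probe set.

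Genes that work with the proteasome were read from a list of ubiquitin carriers, shuttles, ligases and regulators. Of 29 measured, none was called, 21 had changes below zero and the median was −0.087, against 0.030 over all genes. At an unadjusted p under 0.05 there were 8, or 27.6%, against 25.2% of all genes. The lowest p was that of Zfand2a, a stress-induced proteasome adaptor, which read 6.99, 6.74 and 6.64 in Control and 6.29, 6.33 and 6.23 in hCG (log2 change −0.51, SE 0.10, limma adjusted p = 0.0554). Vcp, the ATPase that extracts ubiquitinated proteins, had a log2 change of −0.28 (SE 0.074, limma adjusted p = 0.0884), and Ube3c, a ligase bound to the proteasome, one of −0.41 (SE 0.12, limma adjusted p = 0.1063). In both, every hCG array was lower. Adrm1, a ubiquitin receptor of the base, had a log2 change of −0.23, the core maturation factor Pomp −0.030 and the inhibitor Psmf1 0.047. Nfe2l1, the transcription factor that induces proteasome genes when the proteasome is impaired, had a log2 change of −0.17 with overlapping groups (limma adjusted p = 0.4972).

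The interferon response and class I antigen processing list, which holds the known inducers and companions of the immunoproteasome, had 34 genes measured and none called. Of these 21 had changes above zero, against 55.8% of all genes, and the median was 0.060. An unadjusted p under 0.05 was found for 6, or 17.6%, against 25.2% of all genes. The 3 of lowest p did not share a direction: the log2 change was 0.59 for Ifit2 (limma adjusted p = 0.0774), 0.57 for the kinase Jak2 (limma adjusted p = 0.0797) and −0.63 for the negative regulator Usp18 (limma adjusted p = 0.0989). Irf1, a main inducer of Psmb8 and Psmb9, read 6.15, 6.19 and 6.22 in Control and 6.57, 6.06 and 6.23 in hCG and overlapped, with hCG 5 the highest. B2m, the light chain of class I molecules, had a log2 change of −0.17 (SE 0.083, limma adjusted p = 0.2454). Another 9 of its genes, Nlrc5 and Irf8 among them, were below the filter.

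NRF2, encoded by Nfe2l2, is a transcription factor that can induce core genes under oxidative stress. Of 16 of its target genes measured, 15 had changes below zero and 4 were called lower in hCG, against 1.06% of all genes. The median change was −0.43. Nqo1 read 9.67, 9.19 and 9.03 in Control and 8.29, 8.26 and 8.20 in hCG (log2 change −1.04, SE 0.16, limma adjusted p = 0.0359), and Pgd fell by 0.63 on the log2 scale (SE 0.076, limma adjusted p = 0.0299). Abcc4 and Taldo1 also fell, by 0.71 and 0.46 on the log2 scale. None of the 4 called NRF2 targets passed without Control 5, Control 6, hCG 5 or hCG 7. Some proteasome promoters hold the antioxidant response element core. Among these genes Psma3, Psmb2, Psmb5 and Psme4 had changes of 0.28, 0.15, 0.16 and 0.18. Psmd1, Psmd3 and Psmd9 had −0.18, −0.35 and −0.048, and no proteasome gene was called. The part of NRF2 in these values was not tested.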

How the data were processed

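RNA from 6 mammosphere cultures was measured on Affymetrix 3' arrays after 2-cycle amplification, per the labels' protocols. The authors' deposited table gives a log2 signal for each of 31099 probe sets and each array. As tools, the submitters' processing notes list MAS5, RMA and limma, without versions or roles. The log base and normalization are not given in the sources used here. They were taken from the values (0.74 to 13.1, nearly equal distributions), so a shift common to most genes is hidden. Control probe sets (57) and the dimmest 40% of the rest, with mean log2 signal under 2.67, were left out, leaving 18625. Names came from the platform annotation, updated through a RefSeq table (GRCr8) for 20758 of 20826 probe sets with 1 gene.

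The groups were compared with limma 3.58.1 (R 4.3.3, lmFit and eBayes) on 1 probe set for each of 10424 genes, two-sided, with Benjamini-Hochberg adjustment over all of them, 4 residual degrees of freedom and no block. The 3 arrays per group limit the precision. Values named for every array were those of the immunoproteasome, Psmb5 and Psmb7, and the 2 members of smallest p in each other role; in other lists, called genes and the 3 of smallest p. Other genes with values were chosen after these were seen. The members and lists were chosen with earlier results of these data known. The gene test was tested on simulated data with planted changes larger than that of any proteasome gene. The simulation thus cannot say how often changes as small as theirs are found. Alternatives were other filters, scalings, weights, variance models and probe set rules, the array number as a block, each array left out, and, added after seeing the data, a fit over all tested probe sets.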

Additional observations from a re-analysis of the deposited data

Results flagged for a closer look

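A probe set that the annotation assigns to both Psma3l and Psma3, and that was therefore outside the gene comparison, had hCG values entirely above those of Control. It read 9.86, 9.87 and 9.70 in Control and 9.99, 9.90 and 9.90 in hCG. The log2 change was 0.12 (SE 0.083), smaller than the 0.28 of the probe set assigned to Psma3 alone, and in the same direction. Signal of the gene and of its copy cannot be told apart on this probe set.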

How the results depend on the processing

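With 3 arrays per group, single arrays decide how many genes are called. The 250 genes called became a range of 0 to 775 when 1 array was left out: 0 without Control 5, Control 6, hCG 5 or hCG 7, 453 without hCG 6 and 775 without Control 7. Proteasome genes called stayed at 0 in each, partner genes ran from 0 to 5 (5 without Control 7), NRF2 targets from 0 to 6, and the chaperone median from −0.069 (without hCG 5) to 0.088 (without hCG 6). Array weights gave 3245 genes, with 10 proteasome, 11 partner, 7 interferon and 10 NRF2 genes called. The array number as a replicate block gave 127 genes, 0 proteasome genes and 1 NRF2 target. Deviations from the group means correlated at −0.157, 0.106 and 0.0134 between same-numbered arrays. With 3 arrays per group this cannot decide whether the numbers pair them. eBayes with trend called 1 partner gene. Cyclic loess moved the medians to 0.00128 (alpha ring), 0.000212 (standard beta ring), −0.16 (base), −0.14 (lid) and −0.037 (all proteasome genes). The causes of these shifts were not tested. Under the other alternatives these counts stayed within 1.5 times, and these medians within 1 SD between replicates.

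Of the 45 genes, 32 kept their sign in all 17 alternatives, and the other 13 had changes of at most 0.10 in size. Signs turned after cyclic loess for Psma1 (−0.041), Psma4 (−0.037), Psma6 (−0.035), Psmb1 (−0.000885), Psmd4 (−0.020), Psmd12 (−0.000875) and Psmd5 (−0.037). They turned after quantile normalization for Psma1 (−0.00753), Psma4 (−0.00408) and Psmd5 (−0.018), and after median centring for Psmc4 (0.00839). Array weights turned Psma1 (−0.043), Psma4 (−0.00136), Psma5 (−0.025), Psmd12 (−0.016), Psmd13 (0.00449) and Psmd5 (−0.014). Averaging all probe sets of a gene turned Psmc4 (0.00376), Psmd9 (0.000153) and Psmd14 (0.053). Leaving out 1 array gave −0.065 to 0.046 for Psma1, −0.022 to 0.035 for Psma4, −0.034 to 0.022 for Psmc4, −0.0081 to 0.095 for Psmd12, −0.063 to 0.014 for Psmd13, −0.0031 to 0.045 for Psmd4, −0.069 to 0.088 for Psmd5, −0.084 to 0.0090 for Psmd9 and −0.083 to 0.0095 for Psme3ip1. The log2 change of Psmb8 ran from −0.68 to −0.34 over all alternatives (adjusted p from 0.0738 to 0.280) and that of Psmb10 from 0.38 to 0.65 (adjusted p from 0.0126 to 0.363).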
